A study of Mus musculus with 8 samples.

Results

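The 10 genes described here are Nfe2l2, which encodes the transcription factor NRF2, and 9 genes of the antioxidant defence: Slc7a11, Gclc, Gclm, Hmox1, Nqo1, Srxn1, Txnrd1, Prdx1 and Sod2. They were taken by symbol from a table of 34745 Ensembl genes, all 10 were found, and all 10 were among the 14040 genes that passed the filter on low counts. They were chosen with earlier results of these data known. The counts come from bulk messenger RNA sequencing of mouse bone-marrow-derived macrophages (BMDM), primary macrophages grown from bone marrow in macrophage colony-stimulating factor at 20 ng/ml. The 8 libraries form 4 groups of 2: KAT8-deficient BMDM given R848 at 100 ng/ml for 6 h, untreated KAT8-deficient BMDM, WT BMDM given the same R848 treatment, and untreated WT BMDM. KAT8 is a histone acetyltransferase, also called MOF, and R848, or resiquimod, is a compound that activates the endosomal receptor TLR7. The labels name the mutant KAT8-cKO. The sources used here do not give strain, age, Cre driver or the deleted part of Kat8. Nor do they say whether 2 libraries of a group are from different animals or cultures, and p-values therefore cover only the spread among these libraries, which may be technical.

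NRF2 is held at a low level by KEAP1, which binds it and passes it to a CUL3 ubiquitin ligase for degradation. When oxidants or electrophiles modify KEAP1, NRF2 accumulates, pairs with a small MAF protein and binds antioxidant response elements near its target genes. In macrophages the pathway is known for restraining oxidant damage and inflammatory gene expression after innate stimulation. Since NRF2 is set largely by protein turnover, the level of its messenger RNA is not a measure of its activity. Sod2 stands somewhat apart, as it is best known as a target of NF-kB.

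Libraries held between 18550977 and 21384532 counts, and the 10 genes together took 0.301 to 0.334% of all counts in R848-treated KAT8-deficient libraries, 0.251 to 0.257% in untreated KAT8-deficient libraries, 0.455 to 0.461% in R848-treated WT libraries and 0.26 to 0.265% in untreated WT libraries. Kat8 itself (ENSMUSG00000030801) stood at 9.94 and 10.4 CPM (normalised counts scaled to a common library size) in R848-treated and at 8.76 and 10.8 CPM in untreated KAT8-deficient libraries, against 18 and 16 CPM in R848-treated and 17 and 17.9 CPM in untreated WT libraries. All KAT8-deficient libraries were thus below all WT libraries, by a log2 value of -0.74 (SE 0.13, edgeR adjusted p = 0.00553) under R848 and -0.83 (SE 0.13, edgeR adjusted p = 0.0113) untreated. The difference under R848 was not called without WT R848 replicate 1 (-0.65, edgeR adjusted p = 0.0526). Untreated, it was not called without KAT8-deficient replicate 1 (-0.70, edgeR adjusted p = 0.0881) or without WT replicate 1 (-0.88, 0.0518) or 2 (-0.79, 0.0589).

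Markers of other cell types were detected, and their levels differed between the genotypes. The summed level of 10 stromal markers was 4040 to 4140 CPM in R848-treated and 4560 to 4810 CPM in untreated KAT8-deficient libraries, against 2750 to 2960 CPM in R848-treated and 3280 to 3800 CPM in untreated WT libraries. Of those markers 9 were called higher in KAT8-deficient cells under R848 and 8 untreated. Over all genes, edgeR called 8.14% higher under R848 and 2.91% untreated. The sum of 4 mesothelial markers was 493 to 575 CPM in R848-treated and 545 to 567 CPM in untreated KAT8-deficient libraries, against 317 to 325 CPM in R848-treated and 380 to 385 CPM in untreated WT libraries, and 4 of them were called higher in KAT8-deficient cells under R848 and 2 untreated. All 8 macrophage markers were expressed. Their sum was 8550 to 9070 CPM in R848-treated and 8800 to 9650 CPM in untreated KAT8-deficient libraries, against 14900 to 16400 CPM in R848-treated and 15400 to 15500 CPM in untreated WT libraries. Most of that gap was Lyz2: without it the sum was 3345 to 3734 CPM in R848-treated and 3462 to 3704 CPM in untreated KAT8-deficient libraries, against 3911 to 4241 CPM in R848-treated and 3759 to 3901 CPM in untreated WT libraries. No stromal, mesothelial or macrophage marker was at 0 in all libraries. Summed erythroid markers reached at most 0.373 CPM, lymphoid markers 1.23 CPM, neutrophil markers 7.89 CPM and endothelial markers 38.7 CPM in any library. Of the 2 endothelial markers tested, Kdr was called higher in KAT8-deficient cells under R848, by 0.53 (SE 0.11). Cdh5, at -1.035 (SE 0.41), was not called. In such bulk samples fewer cells of a type and less RNA per cell cannot be told apart, and the part of other cells in the results below was not tested.

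The promoters of 5 of the genes are shown, each with a match to a motif described in the next paragraph. For Slc7a11 the only matches were to letters read by the factor ATF4. Nfe2l2, which also had a match, is not printed. The genes shown include the largest response (Slc7a11), the gene called in every pairwise comparison (Gclm) and the 2 genes with the most similar profiles (Srxn1 and Txnrd1). Each line gives the 250 bases before the RefSeq start site, 5′ to 3′ on the gene's strand, from RefSeq on GRCm38.p6, with matches to the motifs named next in capitals.
Slc7a11 (chr3:50443614-50443863, minus strand): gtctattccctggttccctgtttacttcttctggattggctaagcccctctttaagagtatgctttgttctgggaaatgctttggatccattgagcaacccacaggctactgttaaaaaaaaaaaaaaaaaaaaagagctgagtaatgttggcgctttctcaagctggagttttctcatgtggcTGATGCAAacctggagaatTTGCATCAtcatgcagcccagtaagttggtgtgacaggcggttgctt
Gclm (chr3:122245307-122245556, plus strand): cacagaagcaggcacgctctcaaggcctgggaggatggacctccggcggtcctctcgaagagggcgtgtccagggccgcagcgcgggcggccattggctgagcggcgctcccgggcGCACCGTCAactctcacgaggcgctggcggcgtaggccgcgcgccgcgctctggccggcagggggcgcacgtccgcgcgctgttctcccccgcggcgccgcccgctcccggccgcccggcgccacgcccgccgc
Srxn1 (chr2:152105274-152105523, plus strand): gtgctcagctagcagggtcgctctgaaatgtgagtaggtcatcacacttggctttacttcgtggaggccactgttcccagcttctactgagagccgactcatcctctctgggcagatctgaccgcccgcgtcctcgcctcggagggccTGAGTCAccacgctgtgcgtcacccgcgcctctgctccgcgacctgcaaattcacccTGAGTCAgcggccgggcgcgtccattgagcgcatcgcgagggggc
Txnrd1 (chr10:82858956-82859205, plus strand, the start site of 3 whose window held a match): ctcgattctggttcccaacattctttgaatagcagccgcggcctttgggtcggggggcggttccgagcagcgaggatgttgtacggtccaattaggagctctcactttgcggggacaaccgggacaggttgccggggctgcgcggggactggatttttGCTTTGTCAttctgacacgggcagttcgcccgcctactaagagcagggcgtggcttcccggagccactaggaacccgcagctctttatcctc
Prdx1 (chr4:116685349-116685598, plus strand): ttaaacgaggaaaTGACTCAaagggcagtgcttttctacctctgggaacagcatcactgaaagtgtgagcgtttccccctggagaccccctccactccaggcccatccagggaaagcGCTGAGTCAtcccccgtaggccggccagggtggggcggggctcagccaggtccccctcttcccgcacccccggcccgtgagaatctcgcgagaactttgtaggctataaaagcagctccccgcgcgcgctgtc

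The 3 motifs were searched on both strands in the 300 bases from 250 before to 50 after each start. They were the core of the antioxidant response element (ARE), TGACNNNGC, the AP-1 site, TGANTCA, which is its own reverse complement, and the core of the amino acid response element read by ATF4, TGATGNAA. The table held 8 of the 10 genes, all but Gclc and Hmox1, with 10 windows. An ARE core was found in 5 of the 8 genes, with its first base, counted from the start site, at -240 in Nfe2l2, -134 in Gclm, -133 in Prdx1, -92 in Txnrd1 and 29 in Srxn1, where it lies beyond the printed stretch. Counted by window, 5 of the 10 held one, against 12.4% of all 32841 promoter windows. The AP-1 letters were in Srxn1, with TGAGTCA at -102 and -45, and in Prdx1, at -237 and -131. These were 2 of the 10 windows, against 7.81% of all windows. N was any base in both counts, while every match in these 2 genes had G or C there. The nearer site of Prdx1 lies within its ARE match, GCTGAGTCA on the gene's strand. Slc7a11 was the only one of the 8 with ATF4-type letters, a match on each strand at -66 and -47. Its window was 1 of the 10, against 3.97% of all windows. No match was found in the windows of Nqo1 and Sod2. A match is a description of the letters, and binding was not measured.

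Nfe2l2 (ENSMUSG00000015839, chromosome 2, 75675513 to 75704641, GRCm38) had 390 and 450 CPM in R848-treated and 318 and 334 CPM in untreated KAT8-deficient libraries, against 541 and 544 CPM in R848-treated and 345 and 334 CPM in untreated WT libraries. The R848-treated WT libraries were the highest, the R848-treated KAT8-deficient ones lay between, and all untreated libraries were close together.

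The glutathione genes are led by Slc7a11 (ENSMUSG00000027737, chromosome 3, 49892526 to 50443614), which encodes the cystine importer xCT that supplies cysteine for glutathione. It had 57.6 and 86 CPM in R848-treated and 35.8 and 45.8 CPM in untreated KAT8-deficient libraries, against 272 and 248 CPM in R848-treated and 53.6 and 60.2 CPM in untreated WT libraries. The R848-treated WT libraries stood far above the rest, and the R848-treated KAT8-deficient libraries overlapped the untreated WT ones. Gclm (ENSMUSG00000028124, chromosome 3, 122245557 to 122270732), the modifier subunit of glutamate-cysteine ligase, the rate-limiting enzyme of glutathione synthesis, had 38.9 and 40.9 CPM in R848-treated and 27 and 28.1 CPM in untreated KAT8-deficient libraries. In WT libraries it had 81.2 and 78.6 CPM with R848 and 38.9 and 42.8 CPM untreated. Here too the R848-treated KAT8-deficient libraries overlapped the untreated WT ones. Its exons share 296 bases with the opposite-strand gene Gm17494 and 244 with Gm6061, but these had at most 3 and 12 counts in any library, against at least 515 for Gclm. Gclc (ENSMUSG00000032350, chromosome 9, 77754535 to 77794485), the catalytic subunit, had 54.6 and 53.6 CPM in R848-treated and 42.6 and 47.4 CPM in untreated KAT8-deficient libraries, against 64.3 and 61.8 CPM in R848-treated and 50.8 and 48.6 CPM in untreated WT libraries. Its 4 groups did not overlap, but they spanned a much narrower range than those of Gclm.

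Of the thioredoxin and peroxiredoxin genes, Txnrd1 (ENSMUSG00000020250, chromosome 10, 82833951 to 82897712), the cytosolic thioredoxin reductase, had 421 and 509 CPM in R848-treated and 332 and 348 CPM in untreated KAT8-deficient libraries. In WT libraries it had 714 and 697 CPM with R848 and 333 and 362 CPM untreated. Untreated libraries of the genotypes overlapped, and those under R848 did not. Srxn1 (ENSMUSG00000032802, chromosome 2, 152105516 to 152111376), sulfiredoxin, which repairs over-oxidised peroxiredoxins, had 274 and 330 CPM in R848-treated and 220 and 232 CPM in untreated KAT8-deficient libraries, against 439 and 424 CPM in R848-treated and 222 and 234 CPM in untreated WT libraries. Prdx1 (ENSMUSG00000028691, chromosome 4, 116685544 to 116700822), a peroxiredoxin that reduces hydrogen peroxide, had 1020 and 1040 CPM in R848-treated and 886 and 898 CPM in untreated KAT8-deficient libraries, against 1400 and 1280 CPM in R848-treated and 975 and 882 CPM in untreated WT libraries. Both genes showed the same order as Txnrd1, with untreated libraries of the genotypes overlapping.

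Hmox1 (ENSMUSG00000005413, chromosome 8, 75093621 to 75100589), heme oxygenase 1, which breaks down heme, had 476 and 519 CPM in R848-treated and 501 and 481 CPM in untreated KAT8-deficient libraries, against 665 and 660 CPM in R848-treated and 465 and 489 CPM in untreated WT libraries. Only the R848-treated WT libraries stood apart. Nqo1 (ENSMUSG00000003849, chromosome 8, 107388225 to 107403206), a quinone reductase often used as an NRF2 reporter gene, was low throughout, with 4.9 and 5.9 CPM in R848-treated and 6.35 and 6.53 CPM in untreated KAT8-deficient libraries, against 7.47 and 6.43 CPM in R848-treated and 6.1 and 6.84 CPM in untreated WT libraries. Its R848-treated KAT8-deficient libraries were the lowest. Sod2 (ENSMUSG00000006818, chromosome 17, 13006846 to 13040063), the mitochondrial superoxide dismutase, had 232 and 311 CPM in R848-treated and 135 and 134 CPM in untreated KAT8-deficient libraries, against 490 and 562 CPM in R848-treated and 147 and 156 CPM in untreated WT libraries. It was above its untreated level in every R848-treated library of either genotype.

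**Figure D1:**
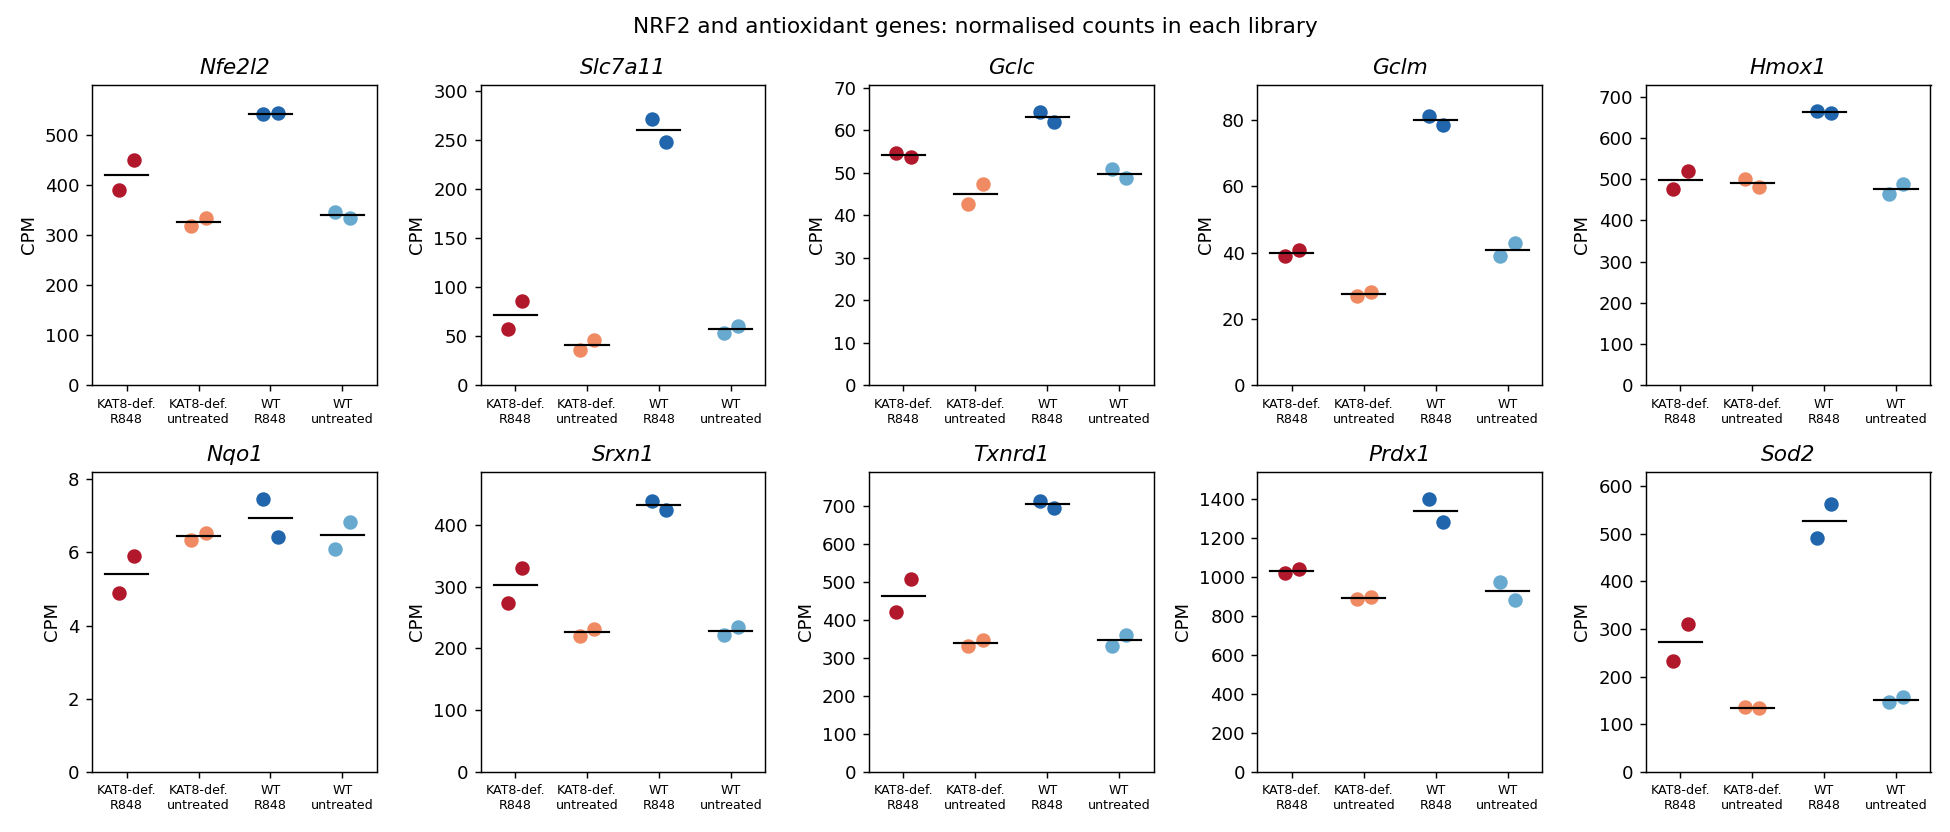
Normalised counts (CPM, linear axes starting at 0) of the 10 genes in each of the 8 libraries, 2 points per group with the group mean as a line. The R848-treated WT libraries are the highest for 9 of the 10 genes, and for Slc7a11 and Gclm the R848-treated KAT8-deficient libraries overlap the untreated WT libraries.

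Per kilobase of exon, which allows levels to be set between genes, Prdx1 was the most abundant of the 10 in every group, at 339 ± 3.54 CPM per kb in R848-treated and 293 ± 2.62 in untreated KAT8-deficient cells, against 441 ± 28.5 in R848-treated and 305 ± 21.6 in untreated WT cells (SD, n = 2 each). Hmox1 came next in each group, at 284 CPM per kb in R848-treated and 280 in untreated KAT8-deficient cells and at 378 in R848-treated and 273 in untreated WT cells. Nfe2l2, Srxn1, Txnrd1 and Sod2 followed, with Srxn1 above Nfe2l2 in R848-treated WT cells, at 153 against 143 CPM per kb, and their libraries overlapping in R848-treated KAT8-deficient cells. Slc7a11 was the lowest in untreated cells of either genotype, at 2.93 CPM per kb in KAT8-deficient and 4.09 in WT cells, although in WT it overlapped its neighbour Nqo1. Under R848 it was ninth in KAT8-deficient cells, at 5.16 CPM per kb, and seventh in WT cells, at 18.7, above Gclc at 16.7 and Gclm at 12.7 CPM per kb. Exon length counts every annotated exon, so a gene read mainly as a short isoform is placed too low on this scale.

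By edgeR, 9 of the 10 genes were called higher with R848 in WT cells and 2 in KAT8-deficient cells. In KAT8-deficient cells Sod2 and Gclm were the 2 of 10 called, both higher, where edgeR called 0.634% of all 14040 genes tested (0.499% higher). There 8 of 10 had an unadjusted p under 0.05 by edgeR, or 80%, where 13.8% of all genes had. DESeq2 called 6 of the 10 there, and 238 of all genes, where edgeR called 89. In WT cells 9 of 10 were called, all higher, where 13.6% of all genes were called (6.94% higher and 6.7% lower). A gene is called where its edgeR p, adjusted over all genes tested, is under 0.05. The median log2 change of the 10 genes was 0.392 in KAT8-deficient and 0.797 in WT cells, against 0.00202 and -0.00244 over all genes tested. The groups did not overlap for 9 of the 10 genes in either genotype, where 46.8% of all genes did not overlap in KAT8-deficient and 56% in WT cells. Stromal markers moved with R848 too: 2 of 10 were called lower in KAT8-deficient cells (median -0.179), and 5 lower and 1 higher in WT cells (median -0.335). Of the 8 macrophage markers, 0 were called by edgeR in KAT8-deficient cells (5 at an unadjusted p under 0.05), and 3 were called higher and 2 lower in WT cells. The part of either in the response was not tested.

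Slc7a11 had the largest WT response of the set, at 2.19 on the log2 scale (SE 0.18, edgeR adjusted p = 0.000184), while its change of 0.82 (SE 0.18, edgeR adjusted p = 0.102) in KAT8-deficient cells was not called and was 0.50 without KAT8-deficient R848 replicate 2. Sod2 rose in both, by 1.01 (SE 0.13, edgeR adjusted p = 0.0273) in KAT8-deficient and by 1.80 (SE 0.13, edgeR adjusted p = 0.000112) in WT cells. Gclm also rose in both, by 0.53 (SE 0.077, edgeR adjusted p = 0.03) in KAT8-deficient and by 0.97 (SE 0.074, edgeR adjusted p = 0.000142) in WT cells. Txnrd1 and Srxn1 rose by 1.02 (SE 0.090) and 0.92 (SE 0.088) in WT cells (edgeR adjusted p = 0.000224 and 0.00031), and had log2 changes of 0.45 (SE 0.090, edgeR adjusted p = 0.0738) and 0.42 (SE 0.088, edgeR adjusted p = 0.0868) in KAT8-deficient cells.

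Nfe2l2 itself had a change of 0.37 (SE 0.074, edgeR adjusted p = 0.0814) in KAT8-deficient cells, which was not called, and rose by 0.67 (SE 0.074, edgeR adjusted p = 0.000639) in WT cells. Prdx1 and Hmox1 rose in WT cells, by 0.53 (SE 0.068) and 0.47 (SE 0.063), and had 0.21 (SE 0.068) and 0.019 (SE 0.063) in KAT8-deficient cells. For Hmox1 the 95% interval of the KAT8-deficient change ran from -0.12 to 0.16. Gclc had the smallest called WT rise, 0.34 (SE 0.074, edgeR adjusted p = 0.0172), beside 0.27 (SE 0.075, edgeR adjusted p = 0.175) in KAT8-deficient cells. Nqo1 was the 1 gene not called in either genotype, with -0.25 (95% interval -0.60 to 0.095) in KAT8-deficient and 0.10 (-0.24 to 0.45) in WT cells.

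**Figure D2:**
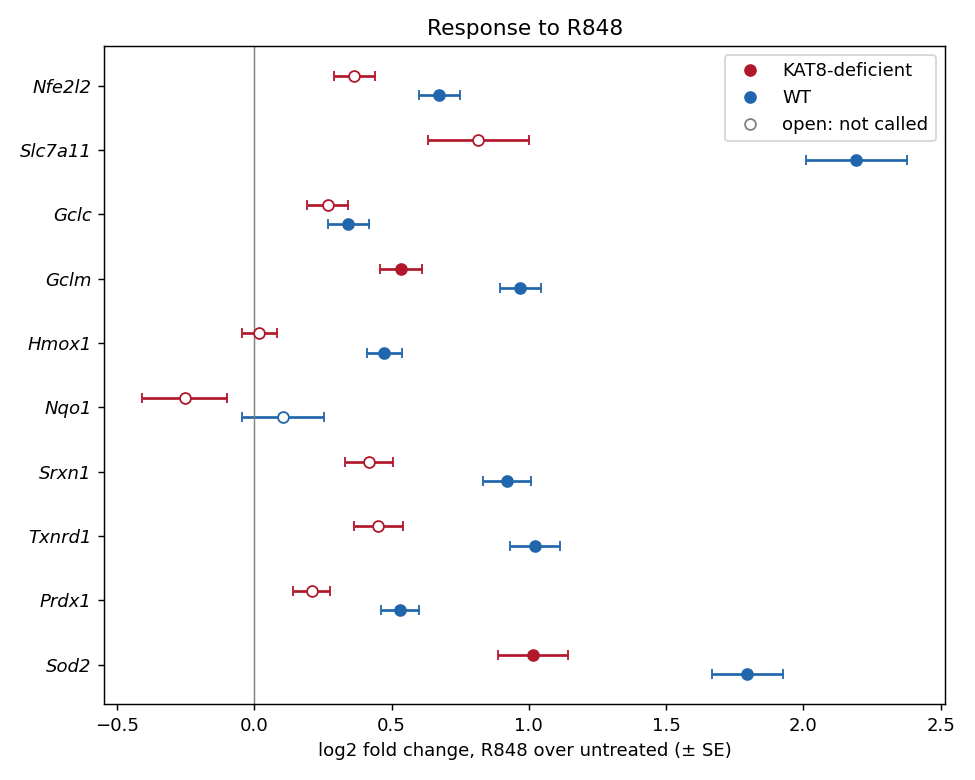
Log2 fold change of R848-treated over untreated cells for each gene (± SE), KAT8-deficient above WT, with filled points where edgeR's adjusted p is under 0.05. Each KAT8-deficient point lies to the left of its WT point, from a small gap for Gclc (0.27 against 0.34) to the widest for Slc7a11 (0.82 against 2.19).

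The KAT8-deficient calls rested on few libraries. Sod2 was not called without KAT8-deficient untreated replicate 1 (1.01, edgeR adjusted p = 0.176) or 2 (1.02, 0.102) or with the 4 KAT8-deficient libraries alone (0.0813). Gclm was not called without KAT8-deficient untreated replicate 1 (0.50, edgeR adjusted p = 0.22) or 2 (0.57, 0.102), KAT8-deficient R848 replicate 2 (0.49, 0.121) or WT R848 replicate 1 (0.53, 0.0707) or 2 (0.53, 0.0705), or with the 4 libraries alone (0.0935). Without KAT8-deficient R848 replicate 1, the lower of the pair, and also with no filter on low counts or by DESeq2, Nfe2l2, Slc7a11, Srxn1 and Txnrd1 were called as well, making 6. In WT cells Gclc was not called without R848 replicate 1 (edgeR adjusted p = 0.127) or 2 (0.0666) or untreated replicate 1 (0.0511) or 2 (0.0958), while the other 8 calls held in all 14 alternatives.

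The difference between the responses was tested as an interaction, the KAT8-deficient log2 change minus the WT one. It uses the same libraries as both responses, so the results are not independent. The 10 genes were also chosen with earlier results known, so their contrast with all genes is no independent test. All 10 estimates were below 0, with a median of -0.445, against 0.00616 over all genes tested, of which 7166 were above 0. None of the 10 was called by edgeR, where 0.228% of all genes were called (0.057% with a difference above 0). At an unadjusted p under 0.05 there were 8 of 10, and 11.4% of all genes. DESeq2 called 5: Slc7a11, Sod2, Txnrd1, Srxn1 and Hmox1. Over all genes DESeq2 called 231, where edgeR called 32. The estimate was largest for Slc7a11, at -1.38 (SE 0.25, 95% interval -1.96 to -0.80, edgeR adjusted p = 0.0684), and next for Sod2, at -0.78 (SE 0.18, edgeR adjusted p = 0.116). Txnrd1 stood at -0.57 (SE 0.13), Srxn1 at -0.50 (SE 0.12), Hmox1 at -0.46 (SE 0.089, edgeR adjusted p = 0.0776) and Gclm at -0.44 (SE 0.11), while Prdx1 (-0.32, SE 0.096) and Nfe2l2 (-0.31, SE 0.11) were smaller. For Gclc, at -0.075 (-0.31 to 0.16), and Nqo1, at -0.36 (-0.85 to 0.13), the intervals held 0. Without KAT8-deficient R848 replicate 2, the higher of the pair, the same 5 genes that DESeq2 called were called by edgeR, with Slc7a11 at -1.69 (edgeR adjusted p = 0.0074).

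Under R848, 8 of the 10 genes were lower in KAT8-deficient than in WT cells and none was higher, where edgeR called 13.6% of all genes (5.47% lower and 8.14% higher). The comparison uses the same R848-treated WT libraries as the WT response, so the results are not independent. The genotypes did not overlap for any of the 10, where 59.4% of all genes did not overlap. The median log2 difference was -0.464, against -0.00746 over all genes tested. Slc7a11 was lower by the most, at -1.86 (SE 0.18, edgeR adjusted p = 0.00061). Gclm followed at -1.002 (SE 0.074, edgeR adjusted p = 0.000271) and Sod2 at -0.95 (SE 0.13, edgeR adjusted p = 0.0019). Txnrd1 stood at -0.60 (SE 0.090) and Srxn1 at -0.51 (SE 0.087). Hmox1 (-0.41, SE 0.063), Prdx1 (-0.38, SE 0.068) and Nfe2l2 (-0.37, SE 0.074) were lower by less. Gclc (-0.22, SE 0.074, edgeR adjusted p = 0.0872) and Nqo1 (-0.36, SE 0.15, edgeR adjusted p = 0.158) were not called. Nfe2l2 was not called without KAT8-deficient R848 replicate 1 (-0.27, edgeR adjusted p = 0.0724) or WT R848 replicate 1 (-0.37, 0.073) or 2 (-0.36, 0.0661), nor Prdx1 without WT R848 replicate 1 (-0.31, 0.0702). The stromal markers, whose sum was 4040 to 4140 CPM in these KAT8-deficient libraries against 2750 to 2960 CPM in the WT ones, moved the other way. Of the 8 macrophage markers, 4 were lower in KAT8-deficient cells, as the set was: Lyz2 at -1.14 (SE 0.069), Cd14 at -0.65 (SE 0.11), Adgre1 at -0.41 (SE 0.061) and Csf1r at -0.39 (SE 0.064). Fcgr1 was higher, at 1.09 (SE 0.14), and the median over the 8 was -0.279. The part of either marker list in these differences was not tested.

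Without R848 the genotypes lay close together for most of the set. Gclm was the 1 gene of 10 called, lower in KAT8-deficient cells at a log2 value of -0.57 (SE 0.077, edgeR adjusted p = 0.00805), where edgeR called 4.27% of all genes (1.36% lower and 2.91% higher). It was not called without KAT8-deficient untreated replicate 1 (-0.54, edgeR adjusted p = 0.0747). The median difference was -0.0587, against -0.00722 over all genes tested. Slc7a11 had -0.48 (SE 0.18, 95% interval -0.90 to -0.062, edgeR adjusted p = 0.188), with no overlap between the genotypes, where 50.4% of all genes had none. The intervals of the others bound the difference on the log2 scale: -0.21 to 0.19 for Srxn1, -0.24 to 0.17 for Txnrd1, -0.21 to 0.097 for Prdx1, -0.10 to 0.18 for Hmox1, -0.23 to 0.11 for Nfe2l2, -0.32 to 0.026 for Gclc, -0.46 to 0.12 for Sod2 and -0.35 to 0.34 for Nqo1. Stromal sums here were 4560 to 4810 CPM in KAT8-deficient and 3280 to 3800 CPM in WT libraries, and Lyz2 was the 1 macrophage marker called, at -1.04 (SE 0.069). Their part was not tested.

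**Figure D3:**
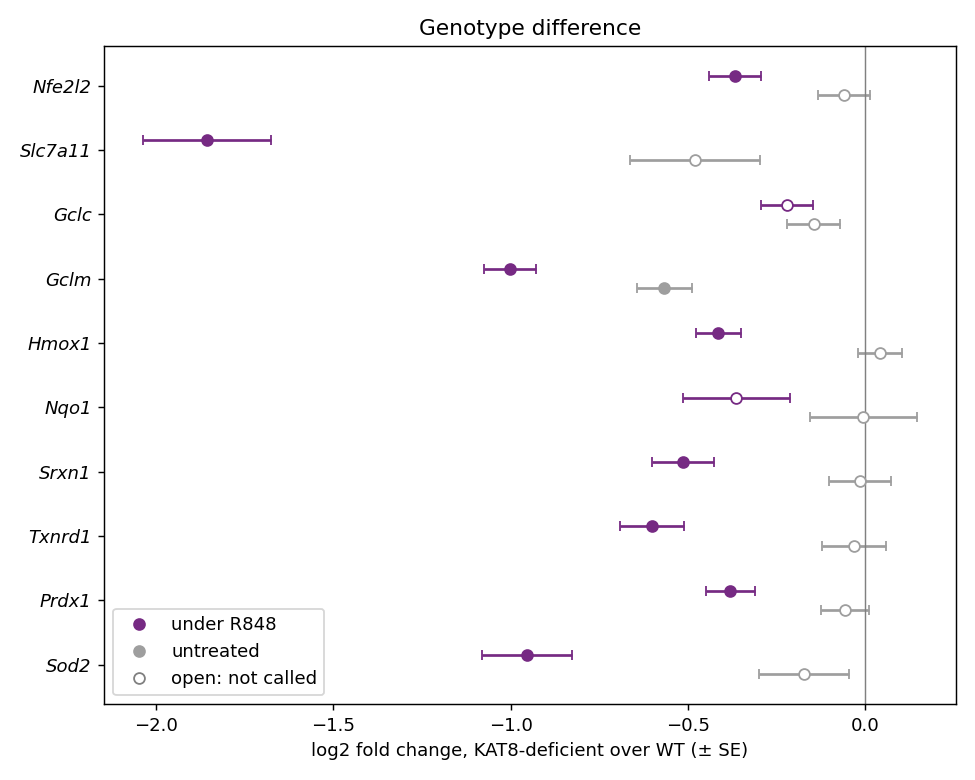
Log2 fold change of KAT8-deficient over WT cells for each gene (± SE), under R848 above and untreated below, with filled points where edgeR's adjusted p is under 0.05. All 10 points under R848 lie left of 0 and 8 are filled, while untreated cells have 1 filled point, Gclm at -0.57.

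Further genes of the pathway were read from 5 lists. Over all genes, edgeR called 0.634% in the KAT8-deficient response and 13.6% in the WT response (6.94% higher and 6.7% lower). Between the genotypes it called 4.27% untreated and 13.6% under R848 (5.47% lower and 8.14% higher). DESeq2 called 238 genes in the KAT8-deficient response, and between the genotypes 566 untreated and 1500 under R848. Of 18 NRF2 regulators none was called in the KAT8-deficient response (6 at an unadjusted p under 0.05, or 33.3%, where 13.8% of all genes were, and 1 by DESeq2; median 0.0668), and 5 rose in the WT response (median 0.0722). In WT cells these included Sqstm1, the autophagy receptor p62 that binds KEAP1, by 0.74 (SE 0.073), and the small MAF genes Mafg by 0.58 (SE 0.067) and Maff by 1.17 (SE 0.17), partners of NRF2 on DNA. Under R848, 3 regulators were lower in KAT8-deficient cells and 1 higher. Sqstm1 was lower at a log2 value of -0.62 (SE 0.073, edgeR adjusted p = 0.00112), with 743 and 840 CPM in KAT8-deficient against 1160 and 1270 CPM in WT libraries, and Maff with a difference of -0.77 (SE 0.17, edgeR adjusted p = 0.0172). Without WT R848 replicate 1 or 2 or KAT8-deficient R848 replicate 1, Maff lost its call and the count of 4 became 1, and it became 2 without KAT8-deficient untreated replicate 1 or 2. In the WT response the count of 5 became 3 without WT R848 replicate 1. Nfe2l3, a relative of NRF2, was higher under R848 (0.38, SE 0.097, a call kept in 6 of 14 alternatives) and was the 1 regulator called untreated (0.45, SE 0.10, edgeR adjusted p = 0.0463), a call kept in 3 of 14 alternatives. Keap1, looked at after its values were seen, had -0.0021 (SE 0.11) under R848 and -0.030 (SE 0.11) untreated. Its libraries lay between 64.8 and 79.9 CPM.

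Of 33 tested genes among 35 other NRF2 targets, none was called in the KAT8-deficient response (5 at an unadjusted p under 0.05, or 15.2%, near the 13.8% of all genes, and 1 by DESeq2; median -0.0131). In the WT response 6 rose and 4 fell (median 0.0463). Abcc1, which exports glutathione conjugates, rose by 1.01 (SE 0.088) and Gsr, glutathione reductase, by 0.80 (SE 0.082), while Idh1, a cytosolic source of NADPH, fell by 0.61 (SE 0.081). Under R848, 3 were lower and 4 higher in KAT8-deficient cells, where 13.6% of all genes were called. Abcc1 had 141 and 172 CPM in KAT8-deficient against 254 and 255 CPM in WT libraries, a log2 value of -0.70 (SE 0.088, edgeR adjusted p = 0.00141). Gsr was lower, at -0.43 (SE 0.081, edgeR adjusted p = 0.0101), and Gsta4, a glutathione transferase, was higher, at 0.92 (SE 0.19, edgeR adjusted p = 0.0134). The 7 calls became 1 without KAT8-deficient R848 replicate 1, 2 without WT R848 replicate 1 and 3 without WT R848 replicate 2, and the 10 of the WT response became 5 or 4 without WT R848 replicate 1 or 2 and 6 without WT untreated replicate 1. Gsr lost its call under R848 without KAT8-deficient R848 replicate 1 (-0.31, edgeR adjusted p = 0.0543) or WT R848 replicate 1 (-0.38, 0.0814), and Gsta4 without any 1 of the 4 R848-treated libraries. Slc3a2, the partner chain of the xCT transporter, was looked at after its values were seen. Its log2 change with R848 was -0.067 (SE 0.072) in KAT8-deficient and 0.15 (SE 0.072) in WT cells, neither called.

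Among 27 other antioxidant enzymes none was called in the KAT8-deficient response (4 at an unadjusted p under 0.05, or 14.8%, near the 13.8% of all genes, and 0 by DESeq2; median -0.0372), while 1 rose and 4 fell in the WT response (median -0.094). The riser was Prdx5, a mitochondrial and peroxisomal peroxiredoxin. It had 219 and 210 CPM in R848-treated and 218 and 196 CPM in untreated KAT8-deficient libraries, against 336 and 337 CPM in R848-treated and 187 and 193 CPM in untreated WT libraries, so only the R848-treated WT libraries stood apart. It rose by 0.83 (SE 0.066, edgeR adjusted p = 0.000158) in WT cells and was lower in KAT8-deficient cells under R848, at -0.65 (SE 0.066, edgeR adjusted p = 0.000656). Sesn1, a stress-inducible sestrin, fell by 0.65 (SE 0.083) in WT cells and was higher in KAT8-deficient cells under R848 by 0.75 (SE 0.083), and Hmox2, the constitutive heme oxygenase, fell by 0.25 (SE 0.060) in WT cells. In all, 4 of the 27 were higher and 1 lower in KAT8-deficient cells under R848, where 13.6% of all genes were called. The higher ones included Msrb3, a methionine sulfoxide reductase, at 0.54 (SE 0.11), which lost its call without KAT8-deficient R848 replicate 2 or WT R848 replicate 1. Those 5 calls became 2 without WT R848 replicate 1 and 3 without WT R848 replicate 2 or KAT8-deficient R848 replicate 1. The 5 calls of the WT response became 2 without either WT R848 replicate or WT untreated replicate 1 and 3 without WT untreated replicate 2, and the call on Hmox2 was lost without any 1 of the 4 WT libraries.

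Of 12 listed enzymes that produce oxidants, 9 were tested. In the KAT8-deficient response 4 had an unadjusted p under 0.05 by edgeR, or 44.4%, where 13.8% of all genes had. Cybb, the catalytic subunit of the phagocyte NADPH oxidase, was the 1 called there, higher by 0.57 (SE 0.094, edgeR adjusted p = 0.0413). That call was kept in 6 of 14 alternatives and, with 1 library left out, only without KAT8-deficient R848 replicate 1. In WT cells it rose by 1.15 (SE 0.094, edgeR adjusted p = 0.000171), and 5 of the 9 rose there and 1 fell (median 0.3). Ncf4, a cytosolic oxidase subunit, rose by 0.61 (SE 0.090), and Xdh, xanthine dehydrogenase, fell by 0.59 (SE 0.059). Under R848, 5 were lower in KAT8-deficient cells and 1 higher. Cybb had 1020 and 1240 CPM in KAT8-deficient against 2410 and 2260 CPM in WT libraries (log2 -1.04, SE 0.094), Ncf1, another oxidase subunit, was lower, at -0.41 (SE 0.056), and Xdh was higher, at 0.44 (SE 0.059). Cybb was also lower untreated, at -0.46 (SE 0.094, edgeR adjusted p = 0.0324), a call kept in 8 of 14 alternatives and lost without any 1 library other than the R848-treated KAT8-deficient ones.

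ATF4 controls amino acid supply and also acts on Slc7a11. Of 18 genes listed as ATF4 and its targets, none was called in the KAT8-deficient response (3 at an unadjusted p under 0.05, or 16.7%, near the 13.8% of all genes, and 0 by DESeq2; median 0.0414), and 6 rose in the WT response (median 0.258). They included the arginine transporter gene Slc7a1 by 0.55 (SE 0.071), the asparagine synthetase gene Asns by 0.40 (SE 0.073) and Mthfd2, of mitochondrial folate metabolism, by 0.43 (SE 0.081). The 6 became 1 without WT R848 replicate 1 and 3 without WT R848 replicate 2 or WT untreated replicate 2. Under R848, 4 were lower in KAT8-deficient cells, among them Mthfd2 at -0.41 (SE 0.081), Psph, of serine synthesis, at -0.45 (SE 0.10) and Slc7a1 at -0.29 (SE 0.071), calls kept in 12, 9 and 8 of 14 alternatives. By edgeR 0 of the 18 were called without KAT8-deficient R848 replicate 1 or WT R848 replicate 1, where 8 had an unadjusted p under 0.05 with all libraries, or 44.4% against 28.2% of all genes, and 2 were called without WT R848 replicate 2 or either untreated KAT8-deficient replicate and by DESeq2. Atf4 itself, looked at after its values were seen, had log2 changes of -0.031 (SE 0.082) in KAT8-deficient and -0.026 (SE 0.082) in WT cells. Untreated, edgeR called none of the other NRF2 targets, other antioxidant enzymes or ATF4 genes between the genotypes, with 9, 8 and 5 at an unadjusted p under 0.05, or 27.3, 29.6 and 27.8%, where 20.3% of all genes were, and 3, 0 and 0 by DESeq2.

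**Figure D4:**
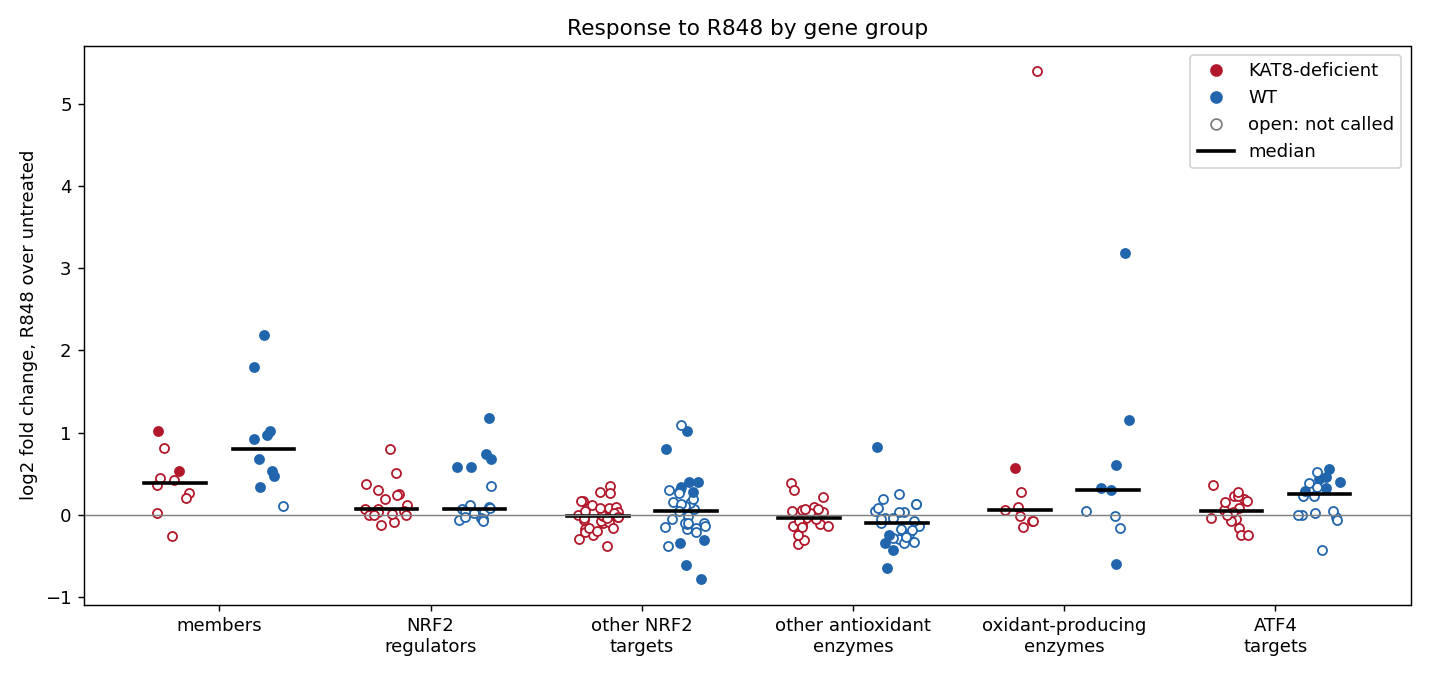
Log2 fold change of R848-treated over untreated cells for each tested gene of the set and of 5 related lists, KAT8-deficient left of WT in each pair, with the median as a bar and filled points where edgeR's adjusted p is under 0.05. The set has medians of 0.392 in KAT8-deficient and 0.797 in WT cells and the medians of the related lists lie nearer to 0. The open point above 5 is Nos2, which had 0 counts in both untreated KAT8-deficient libraries and 5 and 6 under R848, so its fitted value is no measure of size.

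The genes varied together to different degrees. Likeness was measured as the mean absolute difference between log2 CPM profiles over the 8 libraries, each centred on its own mean, and the libraries share treatment and genotype, so likeness says nothing of shared control. Within the set, Srxn1 and Txnrd1 had the most similar profiles, 0.0387 apart on the log2 scale, and Gclc and Prdx1 came next at 0.0762. Among 10217 other genes at 5 CPM or more, the profiles nearest to Slc7a11 were those of Icam1, an adhesion receptor of leukocytes (0.106), Mefv, which encodes pyrin (0.121), Ptges, a prostaglandin E synthase (0.123), and Malt1, a protease of NF-kB signalling (0.145). Icam1 averaged 157 CPM in R848-treated and 80.3 CPM in untreated KAT8-deficient cells, against 455 CPM in R848-treated and 111 CPM in untreated WT cells. The profiles nearest to Sod2 were those of Rassf4 (0.0838), Cdc42ep2 (0.0934), Il1a, the cytokine interleukin 1 alpha (0.11), and Zc3h12c (0.113). Nearest to Nfe2l2 were Plagl2 (0.035), Nadk, the kinase that makes NADP (0.0415), Plekhm3 (0.0432) and Kpna3, a nuclear import factor (0.0435).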

How the data were processed

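Messenger RNA was sequenced in 8 libraries. The authors deposited 1 table of raw counts with Ensembl gene identifiers and a column for each library, per the file headers. The submitters' processing notes name HISAT2, StringTie 1.3.0, edgeR and mm10 without their roles. The sources used here do not give annotation, strand setting or counting rules, and reads shared by overlapping genes may have been split.

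Symbols, positions and exon lengths came from GENCODE for GRCm38, the build of mm10, and 34267 of 34745 identifiers had a symbol. Genes were filtered with filterByExpr, and the 14040 left held 99.95% of counts. Counts were scaled by TMM and fitted in edgeR 4.0.16 (R 4.3.3) with glmQLFit, 1 mean per group, all 8 libraries together, 4 residual degrees of freedom. Tests were two-sided quasi-likelihood tests (glmQLFTest), with Benjamini-Hochberg adjustment over all genes tested and a threshold of 0.05. CPM used TMM library sizes. The SE is the absolute log2 change over the square root of F, and intervals are 95%. With groups of 2, precision rests on the pooled spread, and 3 counts corresponded to 0.14 to 0.162 CPM. On simulated counts with 13843 and 13838 genes tested, edgeR recovered 73% (KAT8-deficient response) and 79% (WT response) of genes changed by 0.75 on the log2 scale, and 97% in each at 1.5. The simulated spread followed the trend with expression level and was not set gene by gene. The changed genes, 200 per simulation, had an expected count of 20 or more. These shares may therefore not hold for genes of larger spread or lower count. The libraries of a pair differed by more than counting noise, with chi-square at 7.41 to 11.96 times its degrees of freedom.

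The 10 genes and all lists were chosen with earlier results of these data known. From each list, up to 3 called genes with the smallest adjusted p are named per comparison, and the 4 nearest profiles for Slc7a11, Nfe2l2 and Sod2 among genes without a predicted name. Alternatives were leaving out each library in turn, the 4 libraries of a comparison alone, replicate number as a block, the Wald test or the size factors of DESeq2 1.42.0, and either no filter or 5 CPM or more in 2 libraries or more. The lists and the listed genes were put through the same alternatives after seeing the data. Promoter sequences came from RefSeq on GRCm38.p6.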

Additional observations from a re-analysis of the deposited data

Results flagged for a closer look

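Prdx5, the peroxiredoxin described above, was the 1 gene of the set and the related lists whose response to R848 differed between the genotypes by edgeR's test of the difference, which called 0.228% of all genes. The KAT8-deficient log2 change minus the WT one was -0.77 (SE 0.093, edgeR adjusted p = 0.0252). By this test it was not called without KAT8-deficient untreated replicate 1 (-0.69, edgeR adjusted p = 0.0998), WT R848 replicate 1 (-0.77, 0.0981) or 2 (-0.77, 0.0899), or WT untreated replicate 1 (-0.74, 0.0619) or 2 (-0.80, 0.0529). DESeq2 called it with an adjusted p of 1.8e-07, and called 5 of the 10 genes and, in the related lists, 1 NRF2 regulator, 3 other NRF2 targets and 2 oxidant-producing enzymes as well. Over all genes DESeq2 called 231 for this difference, where edgeR called 32.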

How the results depend on the processing

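Of the 20 calls on the 10 genes, 14 held in all alternatives run. The number of the 10 genes called in the KAT8-deficient response, 2, became 6 with no filter, 6 by DESeq2, 0 with the 4 libraries alone and 0 to 6 with 1 library left out. All genes called there, 89, became 274, 238, 22 and 2 to 186 in the same order. In the WT response the 9 stayed at 8 to 9, and all genes called, 1916, became 858 to 1826 with 1 library left out. Untreated, the 1 gene became 0 to 1, and the 600 of all genes became 384 with the 4 libraries alone and 66 to 606 with 1 left out. Under R848 the 8 became 6 to 8 and the 1911 became 784 to 1894. For the interaction, 0 of 10 became 4 with no filter, 5 by DESeq2 and 0 to 5 with 1 library left out, and the 32 of all genes became 245, 231 and 6 to 208. Some estimates near 0, not called in any alternative, changed sign with 1 library left out: Hmox1 in the KAT8-deficient response (-0.047 to 0.076), Nqo1 in the WT response (-0.015 to 0.20), Gclc in the interaction (-0.15 to 0.010), and untreated Srxn1 (-0.059 to 0.030), Txnrd1 (-0.099 to 0.037), Hmox1 (-0.0025 to 0.085), Prdx1 (-0.12 to 0.0089) and Nqo1 (-0.095 to 0.083, and 0.0061 with the 5 CPM filter). The cause of these shifts was not tested. Replicate numbers are shared by the groups, and deviations of same-numbered libraries correlated by -0.0623 to 0.0537 across genes. Such low values cannot exclude shared animals or batches of small effect, so whether the numbers pair the samples is not known. With a replicate block the counts of the 10 genes called were 2 in the KAT8-deficient response, 9 in the WT response, 1 untreated, 8 under R848 and 0 for the interaction, and over all genes 73, 1875, 531, 1871 and 25.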
